A study of Mus musculus with 20 samples.

Results

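The genes described here are 35 genes of the cell cycle and of DNA replication, grouped by their known roles. The list was chosen with earlier results of these data known, so the shares called below are no independent evidence about it. The genes were found by symbol among the 24059 genes of the deposited count tables, all 35 were present, and all 35 passed the filter on low counts, as did 14007 genes in all. The RNA came from left ventricular free walls of C57BL/6 males of roughly 9 to 13 weeks of age, in 4 groups of 5 libraries. GRflox mice carry loxP-flanked alleles of the glucocorticoid receptor gene Nr3c1 (GRfl/fl) and no Cre. CardioGRKO mice are littermates with the same floxed alleles and 1 copy of a Cre transgene under the alpha myosin heavy chain promoter (GRfl/fl alphaMHCCre/+), which is active in cardiomyocytes. The floxed alleles are thus common to all groups, and loss of the receptor and presence of Cre cannot be told apart. Hearts of each genotype were taken at ZT0, when lights went on, or at ZT12, when lights went off. The labels number the libraries but name no animals, and p-values therefore measure only the spread between libraries.

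The cell cycle is driven by cyclins bound to cyclin-dependent kinases. D-type cyclins act in G1, cyclin E and the E2F transcription factors at the entry into S phase, and cyclins A and B with Cdk1 at mitosis. Before S phase the MCM helicase is loaded on DNA, and it unwinds the template for polymerases held by the sliding clamp Pcna. In mitosis the Aurora and Polo kinases, kinesin motors and spindle proteins separate the chromosomes, and the anaphase-promoting complex then tags cyclins for destruction. In the adult mouse heart most cardiomyocytes have left the cycle, and dividing cells are found mainly among the other cell types. The glucocorticoid receptor is a transcription factor that is activated by glucocorticoid hormones, whose blood level follows a daily rhythm.

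The libraries held 5854462 to 37648421 counted reads, with a median of 23223656. The shallowest, CardioGRKO ZT0 replicate 1, is called the shallow library below; the next held 11143527, and the deposited file of the shallow library also carries another number than the other 19. Nr3c1 ran at 95.3 to 122 CPM (CPM are counts relative to library size, with sizes scaled by TMM) in the 10 GRflox libraries and at 46.7 to 61.1 CPM in the 10 CardioGRKO libraries, without overlap. The summed level of 10 cardiomyocyte markers was 107327 to 117065 CPM in GRflox and 94290 to 108526 CPM in CardioGRKO, and that of 10 endothelial markers 1234 to 1638 and 1074 to 1435 CPM. At ZT0, 5 cardiomyocyte and 6 endothelial markers were lower in CardioGRKO by the test described below and 1 cardiomyocyte marker was higher. Without the shallow library 5 and 4 were lower at ZT0 and 0 higher. At ZT12 7 and 4 were lower, and over both times 6 and 8 were lower and 2 cardiomyocyte markers higher. Of all genes 7.35% at ZT0, 10.7% at ZT12 and 15.9% over both times were called lower. The list of 10 markers for pericytes and smooth muscle had 4 lower and 1 higher (Acta2, by 1.14) at ZT0, 1 lower and 1 higher at ZT12, and 7 lower and 1 higher over both times, or 5 lower and 1 higher over both times without the shallow library. Of 10 macrophage markers none passed the test at either time (0 and 1 at an unadjusted p under 0.05, and 0 by DESeq2), and 1 (Mrc1, by 0.13) was higher over both times, which it was not without the shallow library, while of 10 fibroblast markers 1 was higher at ZT12. The summed macrophage level was 332 to 487 CPM in GRflox and 350 to 499 CPM in CardioGRKO, and the fibroblast level 1154 to 1429 and 1289 to 1461 CPM. Summed levels in CPM were at most 4.61 for 9 lymphocyte markers, 5.01 for 7 neutrophil markers and 67.5 for 8 erythroid markers, of which Hba-a1, Hba-a2, Hbb-bs and Hbb-bt had no count in any library. Whether these cell types have a part in the differences below was not tested.

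Promoter windows of 250 bases before to 50 bases after an annotated start were taken from RefSeq (GRCm38.p6), and 27 of the 35 genes had one. Some genes have several starts (32851 windows for 27025 genes), and a gene was counted when any of its windows matched. Those without a window were Ccna2, Aurkb, Tpx2, Kif20a, Mcm4, Ccnd1, Ccnd2 and Ccne2. Of the motifs known from promoters of such genes, the cell cycle genes homology region (CHR, TTTGAA or TTCGAA, both strands) was found in 15 of 27 genes (55.6%), against 21.7% of the 27025 genes with a window. The CCAAT box (CCAAT, both strands) was found in 22 (81.5%), against 41.1% of all genes, and both motifs together in 15 (55.6%), against 8.61%. An E2F site (TTTCCCGC, TTTGGCGC, TTTCGCGC or TTTGCCGC, both strands) was found in 5 (18.5%), namely Cdk1, Mcm3, Mcm5, Mcm6 and Mcm7, against 2.60%. The 6-base glucocorticoid receptor site (AGAACA, both strands) was found in 3 genes (11.1%), Cdc20, Cenpe and Plk1, against 21.3%. No window of the 27 genes held the palindromic glucocorticoid response element. Of the 27025 genes with a window only 3 (0.0111%) held it. A motif this rare could hardly be met among 27 genes, so its absence tells nothing about them. All these motif counts are matches of letters in short windows and do not show binding.

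The 250 bases before an annotated start are printed for 6 genes whose RNA was higher in CardioGRKO when both times were averaged. They comprise 4 mitotic (Aurka, Cdk1, Top2a, Ube2c) and 2 replicative (Mcm2, Rrm2) genes, each with its first listed window. They were chosen after their values had been seen, to show windows rich and poor in these motifs. Each is given 5′ to 3′ on the strand of the gene, and capitals mark CHR, CCAAT and E2F matches.
Aurka, chr2:172370571-172370820, minus strand: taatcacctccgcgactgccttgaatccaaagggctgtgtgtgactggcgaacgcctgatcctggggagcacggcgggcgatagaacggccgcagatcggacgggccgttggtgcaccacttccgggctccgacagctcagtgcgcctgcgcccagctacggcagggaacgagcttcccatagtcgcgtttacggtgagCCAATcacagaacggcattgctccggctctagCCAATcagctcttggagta
Cdk1, chr10:69352913-69353162, minus strand: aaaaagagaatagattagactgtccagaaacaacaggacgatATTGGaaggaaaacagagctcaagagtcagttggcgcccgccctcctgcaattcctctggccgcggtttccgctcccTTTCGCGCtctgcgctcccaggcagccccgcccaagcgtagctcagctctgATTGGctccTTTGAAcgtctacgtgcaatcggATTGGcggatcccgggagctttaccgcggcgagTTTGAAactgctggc
Top2a, chr11:99024190-99024439, minus strand: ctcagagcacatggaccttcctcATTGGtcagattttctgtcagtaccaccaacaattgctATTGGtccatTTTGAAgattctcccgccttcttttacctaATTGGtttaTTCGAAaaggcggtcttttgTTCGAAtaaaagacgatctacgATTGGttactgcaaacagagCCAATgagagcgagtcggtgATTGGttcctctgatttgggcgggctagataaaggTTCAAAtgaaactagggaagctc
Ube2c, chr2:164769679-164769928, plus strand: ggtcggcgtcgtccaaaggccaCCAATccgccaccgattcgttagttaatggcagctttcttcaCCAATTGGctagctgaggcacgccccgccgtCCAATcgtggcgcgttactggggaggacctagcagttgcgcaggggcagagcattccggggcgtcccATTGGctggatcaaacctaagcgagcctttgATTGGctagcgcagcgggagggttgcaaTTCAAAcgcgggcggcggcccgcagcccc
Mcm2, chr6:88898781-88899030, minus strand: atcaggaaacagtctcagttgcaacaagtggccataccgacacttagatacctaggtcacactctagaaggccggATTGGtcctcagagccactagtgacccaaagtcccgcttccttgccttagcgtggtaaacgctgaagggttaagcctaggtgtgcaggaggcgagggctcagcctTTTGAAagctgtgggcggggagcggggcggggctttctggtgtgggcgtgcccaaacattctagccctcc
Rrm2, chr12:24708004-24708253, plus strand: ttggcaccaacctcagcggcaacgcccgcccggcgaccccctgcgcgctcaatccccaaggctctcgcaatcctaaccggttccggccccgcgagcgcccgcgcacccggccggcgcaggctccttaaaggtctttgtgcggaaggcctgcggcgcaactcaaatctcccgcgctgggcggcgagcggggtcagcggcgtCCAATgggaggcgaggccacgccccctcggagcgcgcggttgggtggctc

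The Top2a stretch held 4 CHR and 6 CCAAT matches, and that of Ube2c 1 CHR and 6 CCAAT matches, of which 2 overlap. Cdk1 held 2 CHR matches, 3 CCAAT matches and 1 E2F site. The CHR match of Aurka lay after the start used, at bases 33 to 38, outside the printed stretch. That stretch lies inside the outer bounds of Aurka (172356190 to 172370886), so it is not before the outermost start. The Top2a stretch also begins inside its gene, which ends at 99024199. Rrm2 held 1 CCAAT match and no CHR.

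The first question was how these genes differ between genotypes. With both times averaged, 21 of the 35 were higher and 14 did not pass the test, by edgeR's quasi-likelihood test with Benjamini-Hochberg adjustment over all 14007 genes and a threshold of 0.05. Of all genes tested, 15.5% were called higher and 15.9% lower in that comparison. Of the 35 none was lower by edgeR, and none was at an unadjusted p under 0.05 or by DESeq2. The median log2 fold change of the 35 was 0.49, with a range of -0.20 to 1.33, against a median of -0.001 over all genes. In whole-tissue RNA, fewer cells of a type and less RNA per cell cannot be told apart.

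At ZT0, 9 of the 35 genes were called higher, against 7.36% of all genes, and at ZT12 11 were, against 10.4% of all genes. No gene of the list was called lower at either time by edgeR or DESeq2, nor was any at an unadjusted p under 0.05, while 7.35% and 10.7% of all genes were. Without overlap between the genotypes, 6 genes lay higher in all CardioGRKO libraries at ZT0 (5.95% of all genes) and 10 at ZT12 (6.6%). The same 6 did so at ZT0 without the shallow library (6.88%). The log2 fold change lay above 0 in 35 genes at ZT0 (48.2% of all genes did), with a median of 0.48, and in 32 at ZT12 (51.0% of all genes did), with a median of 0.56. Without the shallow library the ZT0 median was 0.24 and 31 genes lay above 0, and the median over both times was 0.40. Called at ZT0 and at ZT12 alike were 5 genes, the kinase gene Aurka, the helicase subunit gene Mcm2, the cyclin genes Ccnd2 and Ccne2 and the transcription factor gene E2f1. Without the shallow library there were 7: Aurka, Ube2c, Mcm2, Mcm7, Rrm2, Ccnd2 and E2f1. The share of all genes called at both times is not given here, so these counts cannot be set against it. A difference between the times in the genotype effect itself was not detected for any gene of the list: by edgeR the interaction called 0 genes, with 0 at an unadjusted p under 0.05 and 0 by DESeq2, against 0.186% of all genes called. Without the shallow library edgeR also called 0 (0.17% of all genes), with 2 at an unadjusted p under 0.05. The median interaction was then 0.19 with 27 genes above 0 (49.1% of all genes), against 0.03 with 20 above 0 when the library is included.

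Without the shallow library the count was 8 at ZT0 (6.33% of all genes called higher) and 18 at ZT12 (10.6%), and it stayed at the same 21 genes with both times averaged (14.9%). Ccne2 lost its call at ZT0, while Bub1b, Top2a, Tpx2, Ube2c, Mcm3, Mcm7 and Rrm2 gained one at ZT12. The shallow library is not part of the ZT12 comparison, but the 4 groups share 1 estimate of each gene's spread. With only the 10 libraries of ZT12 in the fit, 16 genes were called (9.36% of all genes were called higher). The ZT12 count also fell to 4 (Aurka, Mcm2, Ccnd2, Ccne2) without GRflox ZT12 replicate 3, to 6 without GRflox ZT12 replicate 2 and to 7 without CardioGRKO ZT12 replicate 1. The share of all genes called in these fits is not given here, so whether the list still exceeded it cannot be said.

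**Figure D1:**
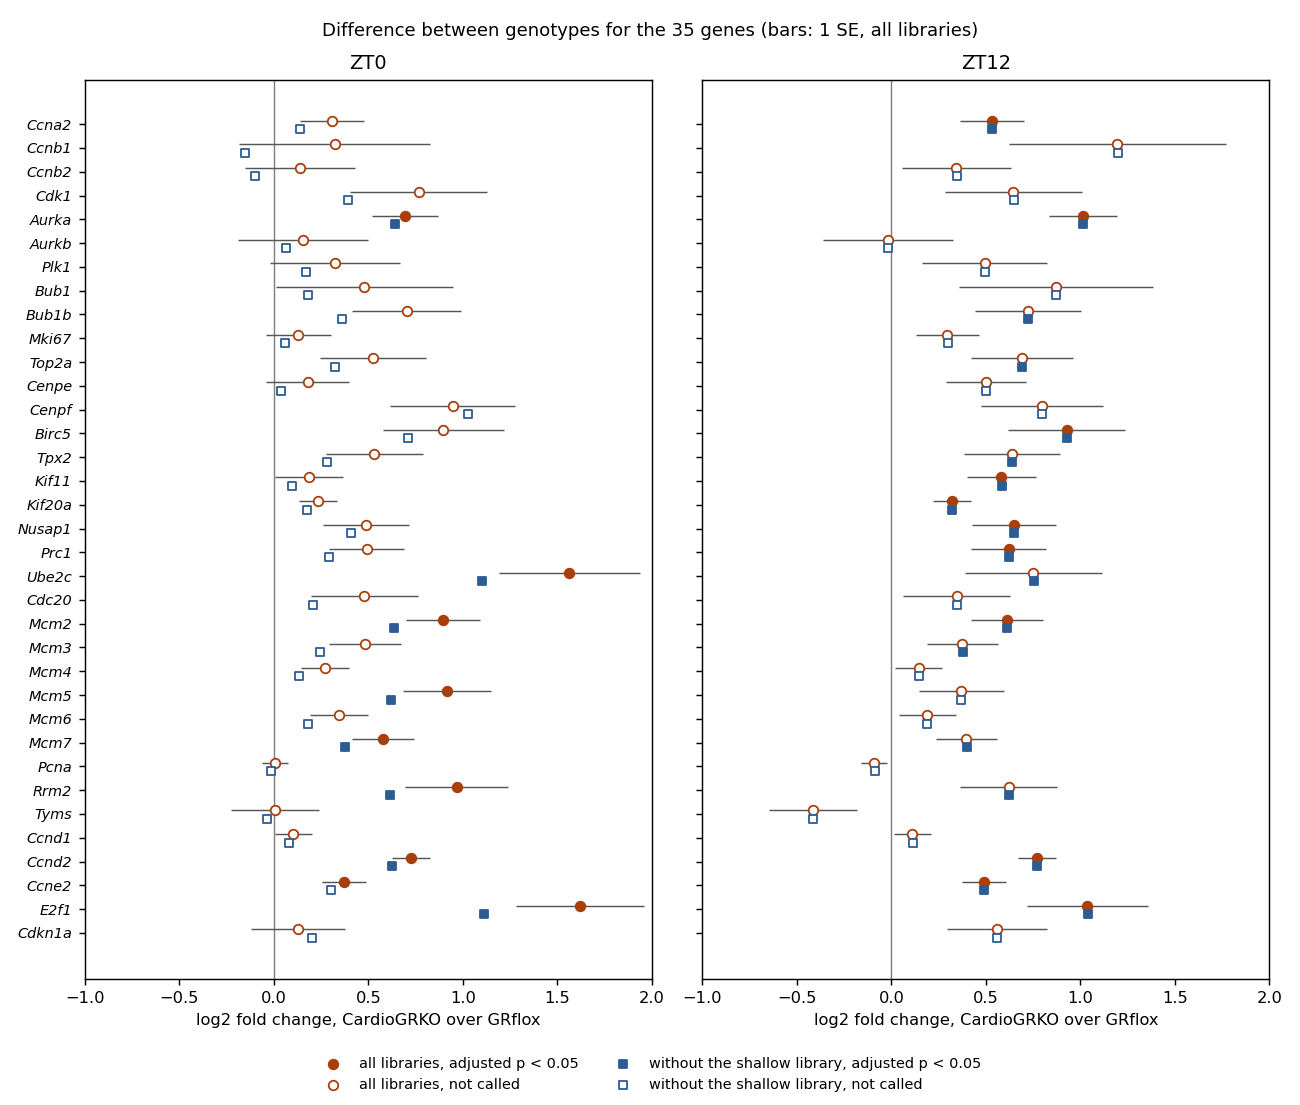
Log2 fold change of CardioGRKO over GRflox for each of the 35 genes at ZT0 (left) and ZT12 (right). Circles use all libraries, with bars of 1 standard error, squares leave out the shallow library, and filled symbols passed an adjusted p of 0.05: 9 circles are filled at ZT0 and 11 at ZT12, and most ZT0 squares lie left of their circles.

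The genes acting in G1 and at the entry into S phase were led by Ccnd2, which encodes cyclin D2, a partner of Cdk4 and Cdk6. At ZT0 its level was 197, 171, 178, 169 and 172 CPM in GRflox and 381, 279, 252, 310 and 251 CPM in CardioGRKO. At ZT12 it was 209, 181, 192, 206 and 161 CPM in GRflox and 342, 290, 388, 316 and 280 CPM in CardioGRKO. All 10 CardioGRKO libraries lay above all 10 GRflox libraries, a pattern that Aurka shared and that 1.9% of all genes had. The log2 fold change of Ccnd2 was 0.73 ± 0.10 (SE) at ZT0 (edgeR adjusted p = 1.66e-05) and 0.77 ± 0.10 at ZT12 (adjusted p = 4.03e-06). With the shallow library left out, the ZT0 value was 0.63 ± 0.09 (adjusted p = 3.43e-05).

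E2f1 encodes a transcription factor that is released from the RB protein and turns on genes of S phase. Its level was 1.22, 1.58, 1.64, 1.78 and 1.53 CPM in GRflox at ZT0, and 14.98 CPM in the shallow library with 3.33, 2.48, 4.58 and 2.65 CPM in the other CardioGRKO libraries of that time. In the ZT12 hearts E2f1 was at 2.52, 2.13, 1.77, 2.02 and 1.70 CPM in GRflox and 4.30, 4.46, 4.44, 3.44 and 4.18 CPM in CardioGRKO. The genotypes did not overlap within either time, with or without the shallow library. E2f1 changed by 1.62 ± 0.34 on the log2 scale at ZT0 (adjusted p = 0.00179), or 1.11 ± 0.17 without the shallow library (adjusted p = 0.00012), a fold of 3.07 against 2.16. Its ZT12 change was 1.04 ± 0.32 (adjusted p = 0.0225), a fold of 2.05.

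Ccne2, which encodes cyclin E2, a Cdk2 partner at the start of S phase, stood at 4.59, 5.08, 5.10, 6.50 and 4.97 CPM in GRflox at ZT0, where CardioGRKO stood at 9.22, 6.40, 7.50, 5.64 and 6.02 CPM. At ZT12 it stood at 4.48, 4.44, 4.41, 3.84 and 4.77 CPM in GRflox and 6.43, 7.01, 5.71, 5.65 and 6.12 CPM in CardioGRKO. The groups overlapped at ZT0 through GRflox replicate 4 and were apart at ZT12. Ccne2 changed by 0.49 ± 0.12 at ZT12 (adjusted p = 0.00353) and by 0.37 ± 0.12 at ZT0 (adjusted p = 0.0326), the latter 0.30 ± 0.11 and not called without the shallow library (adjusted p = 0.0786). Ccnd1, the gene of cyclin D1, did not pass at either time: its log2 fold change over both times was 0.11, with a 95% interval of -0.03 to 0.24. The highest Ccnd1 value of all, 152 CPM, belonged to GRflox ZT12 replicate 4, and without that library the change over both times was 0.17 ± 0.05 and was called (adjusted p = 0.0129). That library was singled out for its high GRflox value, and leaving it out raises the difference by construction. The call is thus no evidence of a change in Ccnd1.

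**Figure D2:**
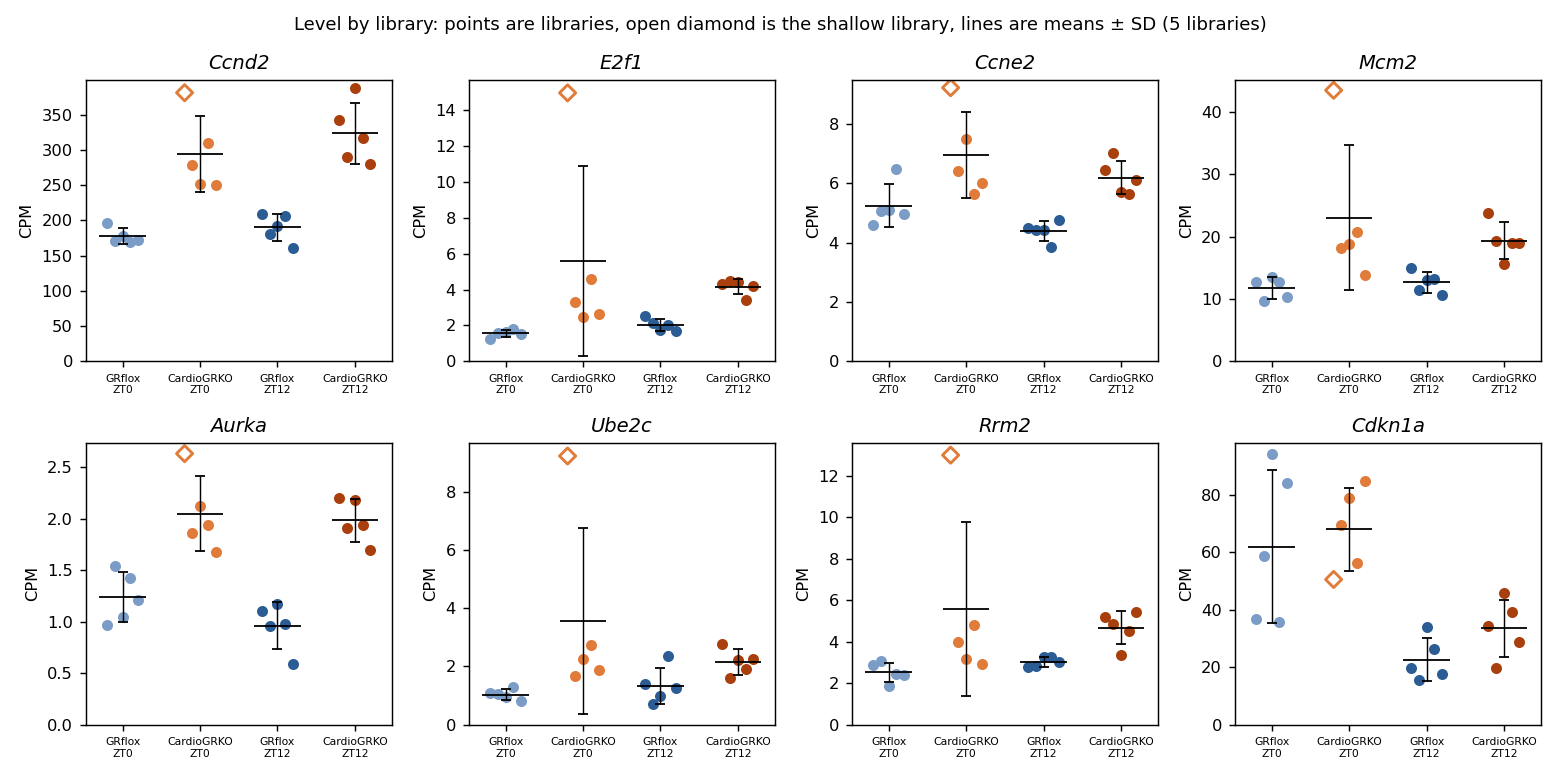
Level in CPM (linear axes from 0) of 8 genes in the 4 groups; each point is a library, the open diamond is the shallow library, and lines and bars give the mean and SD of 5 libraries. Ccnd2 and Aurka separate the genotypes in all libraries, the shallow library stands far above the rest for E2f1, Mcm2, Ube2c and Rrm2, and Cdkn1a is lower at ZT12.

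The 6 genes of the MCM helicase, which unwinds DNA at the replication fork, had log2 fold changes of 0.27 to 0.92 at ZT0 and 0.14 to 0.61 at ZT12. The ZT0 range was 0.13 to 0.63 without the shallow library, and the ZT0 median fell from 0.53 to 0.31. At ZT0 Mcm2, Mcm5 and Mcm7 were called higher, at ZT12 Mcm2, and with both times averaged Mcm2, Mcm3, Mcm5 and Mcm7. Mcm2 was at 12.8, 9.61, 13.5, 12.7 and 10.2 CPM in GRflox at ZT0, and at 43.5 CPM in the shallow library with 18.2, 18.8, 20.8 and 13.9 CPM in the other CardioGRKO libraries. At ZT12 Mcm2 was at 15.003, 11.4, 13.1, 13.2 and 10.6 CPM in GRflox and at 23.8, 19.3, 15.6, 19.0 and 19.0 CPM in CardioGRKO. Within each time every CardioGRKO library lay above every GRflox library. The log2 fold change of Mcm2 was 0.89 ± 0.19 at ZT0 (adjusted p = 0.00256), 0.63 ± 0.13 there without the shallow library (adjusted p = 0.00168) and 0.61 ± 0.19 at ZT12 (adjusted p = 0.0232).

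Mcm5 was at 5.61, 4.49, 5.27, 4.43 and 3.76 CPM in GRflox at ZT0, and at 20.3 CPM in the shallow library with 6.999, 7.23, 8.37 and 5.84 CPM in the other 4. These did not overlap, while at ZT12 GRflox replicate 4 (7.35 CPM) lay above 3 of the CardioGRKO libraries. Its log2 fold change was 0.92 ± 0.23 at ZT0 (adjusted p = 0.00832), or 0.62 ± 0.15 without the shallow library (adjusted p = 0.00769), and 0.37 ± 0.23 at ZT12 (adjusted p = 0.273). Mcm7 changed by 0.58 ± 0.16 at ZT0 (adjusted p = 0.0182) and was not called at ZT12 (0.40 ± 0.16, adjusted p = 0.0808), although its 5 CardioGRKO libraries there, at 9.29 to 12.6 CPM, lay above the GRflox libraries at 7.54 to 9.26 CPM. Mcm4 and Mcm6 were not called at any time, with log2 fold changes over both times of 0.21 (95% interval 0.03 to 0.38) and 0.27 (0.06 to 0.48). Over both times the 6 changes ran from 0.21 to 0.75, and whether they differ from each other was not tested.

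The sliding clamp gene Pcna showed no detectable difference. It was at 19.4 to 25.7 CPM in GRflox and at 18.6 to 23.4 CPM in CardioGRKO over both times, and its log2 fold change was -0.04 with a 95% interval of -0.14 to 0.05. Tyms, the gene of thymidylate synthase, which makes a DNA precursor, was not called either (-0.20, interval -0.53 to 0.12), with 0.01 ± 0.23 at ZT0 and -0.42 ± 0.23 at ZT12. Rrm2, the gene of the small subunit of ribonucleotide reductase, which supplies deoxynucleotides, did change. Its level was 2.85, 3.08, 1.85, 2.43 and 2.39 CPM in GRflox at ZT0, and 13.0 CPM in the shallow library with 3.98, 3.16, 4.82 and 2.92 CPM in the other CardioGRKO libraries. In ZT12 hearts Rrm2 was at 2.77, 2.85, 3.27, 3.25 and 3.004 CPM in GRflox and 5.21, 4.87, 3.37, 4.51 and 5.45 CPM in CardioGRKO. The genotypes overlapped slightly at ZT0 and not at ZT12. Rrm2 changed by 0.97 ± 0.27 at ZT0 (adjusted p = 0.0171), 0.61 ± 0.17 there without the shallow library (adjusted p = 0.0183) and 0.62 ± 0.26 at ZT12 (adjusted p = 0.0945). That ZT12 value passed without the shallow library (adjusted p = 0.00543).

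Among 9 genes of mitotic cyclins, kinases and the spindle checkpoint, Aurka was the most separated between genotypes. Aurka encodes Aurora kinase A, which acts at the spindle poles. It was at 0.968, 1.54, 1.05, 1.43 and 1.21 CPM in GRflox at ZT0, against 2.63, 1.86, 2.12, 1.94 and 1.68 CPM in CardioGRKO. At ZT12 it was at 1.11, 0.962, 1.18, 0.975 and 0.588 CPM in GRflox and 2.20, 1.91, 2.18, 1.94 and 1.70 CPM in CardioGRKO. No GRflox library of either time reached the lowest CardioGRKO library. Aurka changed by 0.69 ± 0.18 at ZT0 (adjusted p = 0.00913) and 1.01 ± 0.18 at ZT12 (adjusted p = 0.000182), and the ZT0 value without the shallow library was 0.64 ± 0.18 (adjusted p = 0.0200).

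Ccna2, the gene of cyclin A2, which acts in S phase and at the entry into mitosis, was called at ZT12, where GRflox was at 4.33, 3.68, 3.09, 5.59 and 4.90 CPM and CardioGRKO at 5.59, 6.92, 6.02, 5.55 and 6.54 CPM. Only GRflox replicate 4 reached into the CardioGRKO range, and the log2 fold change was 0.53 ± 0.17 (adjusted p = 0.0245). At ZT0 it was 0.31 ± 0.17 with the shallow library (11.0 CPM) and 0.14 ± 0.13 without it, and was called in neither case. Cdk1, the kinase of mitotic entry, and Bub1b, which encodes the checkpoint kinase BubR1, passed the test only when both times were averaged, with 0.71 ± 0.26 (adjusted p = 0.0379) and 0.71 ± 0.20 (adjusted p = 0.00830). Leaving out the shallow library gave 0.52 ± 0.19 and 0.54 ± 0.13, both still called.

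The other 5 genes of this class, Ccnb1, Ccnb2, Aurkb, Plk1 and Bub1, passed at neither time nor over both. Cyclins B1 and B2 are the partners of Cdk1, Aurora kinase B and Bub1 act at the centromere, and Polo-like kinase 1 acts throughout mitosis. These genes were low, with means of 0.430, 0.864, 0.546, 1.02 and 0.508 CPM and as few as 2 counts of Aurkb and Bub1 in a library. Cdk1 and Birc5, which were called over both times, had means of 1.03 and 1.13 CPM, close to that of Plk1. The intervals of these 5 genes over both times were wide: those of Ccnb1 (0.01 to 1.51), Plk1 (-0.06 to 0.88) and Bub1 (-0.00 to 1.35) include the 0.85 of Aurka. Those of Ccnb2 (-0.16 to 0.64) and Aurkb (-0.40 to 0.54) do not. The 0.85 was the largest change of this class and its own error was not used here. Whether any of these genes differs from Aurka was not tested. Ccnb1 and Ccnb2 had a log2 fold change above 0 at ZT0 with the shallow library (0.32 and 0.14) and below 0 without it (-0.15 and -0.10).

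The 10 genes of the spindle, the chromosomes and proliferation had log2 fold changes of 0.13 to 0.95 at ZT0 and 0.30 to 0.93 at ZT12. Leaving out the shallow library moved the ZT0 range to 0.04 to 1.03 and the ZT0 median from 0.49 to 0.29. None passed at ZT0 by edgeR, with 5 at an unadjusted p under 0.05 and 1 (Birc5) by DESeq2. At ZT12, 5 were called (10.4% of all genes were called higher): Birc5, Kif11, Kif20a, Nusap1 and Prc1. None of these 5 was called at ZT12 when GRflox ZT12 replicate 3 was left out. With both times averaged, 8 were called (15.5% of all genes were called higher), and only Mki67 and Cenpe were not.

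Prc1, which encodes a protein that bundles microtubules between the separating chromosomes, was at 2.82, 2.05, 1.91, 3.06 and 2.74 CPM in GRflox and 3.53, 3.69, 3.95, 4.04 and 3.70 CPM in CardioGRKO at ZT12. Those groups did not overlap, nor did those of the kinesin genes Kif11 and Kif20a at ZT12. Kif11, the motor that pushes spindle poles apart, was at 1.26, 1.30, 1.12, 1.82 and 1.70 CPM in GRflox and 1.85, 2.37, 2.11, 1.84 and 2.42 CPM in CardioGRKO. Kif20a, a motor of late mitosis and cytokinesis, was at 6.19, 5.44, 5.47, 5.98 and 6.66 CPM in GRflox and 7.87, 6.69, 6.86, 8.05 and 7.39 CPM in CardioGRKO. The gaps between the groups were small for both kinesins. The log2 fold changes at ZT12 were 0.62 ± 0.20 for Prc1 (adjusted p = 0.0260), 0.58 ± 0.18 for Kif11 (adjusted p = 0.0229) and 0.32 ± 0.10 for Kif20a (adjusted p = 0.0221).

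Birc5, the gene of survivin, a part of the chromosomal passenger complex with Aurora kinase B, was at 1.01, 0.962, 0.383, 0.975 and 0.653 CPM in GRflox and 1.82, 1.09, 1.88, 1.47 and 0.970 CPM in CardioGRKO at ZT12. The groups overlapped, and the log2 fold change was 0.93 ± 0.31 (adjusted p = 0.0339). Nusap1, whose protein binds spindle microtubules, changed by 0.65 ± 0.22 (adjusted p = 0.0377). Top2a, the gene of the topoisomerase that untangles replicated chromosomes, and Tpx2, an activator of Aurora kinase A, passed over both times with 0.61 ± 0.19 (adjusted p = 0.0196) and 0.58 ± 0.18 (adjusted p = 0.0161). These values were smaller without the shallow library, at 0.51 ± 0.18 and 0.46 ± 0.14, and were still called.

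Cenpf, which encodes a large protein of the kinetochore and nuclear matrix, varied in another way than the rest. It was at 31.2, 20.9, 15.3, 24.6 and 30.02 CPM in GRflox at ZT0, against 33.1, 27.2, 54.0, 42.0 and 79.6 CPM in CardioGRKO. At ZT12 it was at 25.6, 42.1, 19.7, 18.3 and 28.6 CPM in GRflox and 28.3, 79.9, 27.2, 27.4 and 73.9 CPM in CardioGRKO. The 3 highest values were CardioGRKO libraries other than the shallow one. At 33.1 CPM the shallow library lay above every GRflox library of ZT0 (15.3 to 31.2 CPM) and below the highest of ZT12 (42.1 CPM). Over both times the log2 fold change was 0.87 ± 0.23 (adjusted p = 0.00545), while at ZT0 and ZT12 alone it missed the threshold (adjusted p = 0.0549 and 0.0849). Mki67, whose protein coats mitotic chromosomes and is a common marker of dividing cells, had a log2 fold change over both times of 0.21, with a 95% interval of -0.02 to 0.45. Its highest value, 15.9 CPM, was that of GRflox ZT12 replicate 4, and without that library it was called, at 0.32 ± 0.09 (adjusted p = 0.0117). Leaving out the highest GRflox value raises the difference by construction, so that call is no evidence of a change in Mki67.

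The remaining pair work with the anaphase-promoting complex: Ube2c is its ubiquitin-conjugating enzyme and Cdc20 its activator. Ube2c was at 1.07, 1.04, 0.942, 1.29 and 0.796 CPM in GRflox at ZT0, and at 9.22 CPM in the shallow library with 1.68, 2.26, 2.73 and 1.86 CPM in the other CardioGRKO libraries. For ZT12 the values were 1.41, 0.711, 0.971, 2.34 and 1.24 CPM in GRflox and 2.76, 1.59, 2.22, 1.90 and 2.24 CPM in CardioGRKO. The groups did not overlap at ZT0 and did at ZT12, through GRflox replicate 4. Ube2c changed at ZT0 by 1.56 ± 0.37 (adjusted p = 0.00558), or 1.10 ± 0.26 without the shallow library (adjusted p = 0.00583), a fold of 2.96 against 2.14. At ZT12 the change was 0.75 ± 0.36 (adjusted p = 0.151), or called without the shallow library (adjusted p = 0.0274). Cdc20 was not called, with 0.41 over both times (95% interval 0.02 to 0.81).

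A single library stood apart in many of these values at once. The shallow library was the highest of the 20 for 27 of the 35 genes (77.1%), which held for 10.1% of all genes. Against the mean of the other 4 libraries of its group it was 4.59 times as high for E2f1, 4.33 times for Ube2c, 3.50 times for Rrm2 and 1.39 times for Aurka. The median over the 35 genes of the log2 ratio to the GRflox mean was 1.18 in the shallow library, 0.08 to 0.44 in the other 4 of its group and 0.31 to 0.42 in CardioGRKO at ZT12. In GRflox it was -0.07 to 0.07 at ZT0 and -0.15 to 0.17 at ZT12. The 4 deeper CardioGRKO libraries of ZT0 thus lay above all 5 GRflox libraries of ZT0, though 1 of them by little. Summed marker levels in the shallow library, against the other 4 of its group, were 95699 against 96536 to 103981 CPM for cardiomyocytes, 1314 against 1301 to 1435 CPM for endothelium, 1454 against 1328 to 1403 CPM for fibroblasts and 378 against 350 to 453 CPM for macrophages. They were 1545 against 1614 to 1832 CPM for pericytes and smooth muscle, and 4.61 against 1.83 to 4.07 CPM for lymphocytes, the highest lymphocyte level of the 20 libraries. The part of its depth or of the number on its file in these values was not tested. GRflox ZT12 replicate 4 held the highest value of Aurkb, Mki67, Pcna, Tyms and Ccnd1. The share of all genes that were highest in that library is not given here. Its median over the 35 genes was 0.17, against 1.18 in the shallow library.

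**Figure D3:**
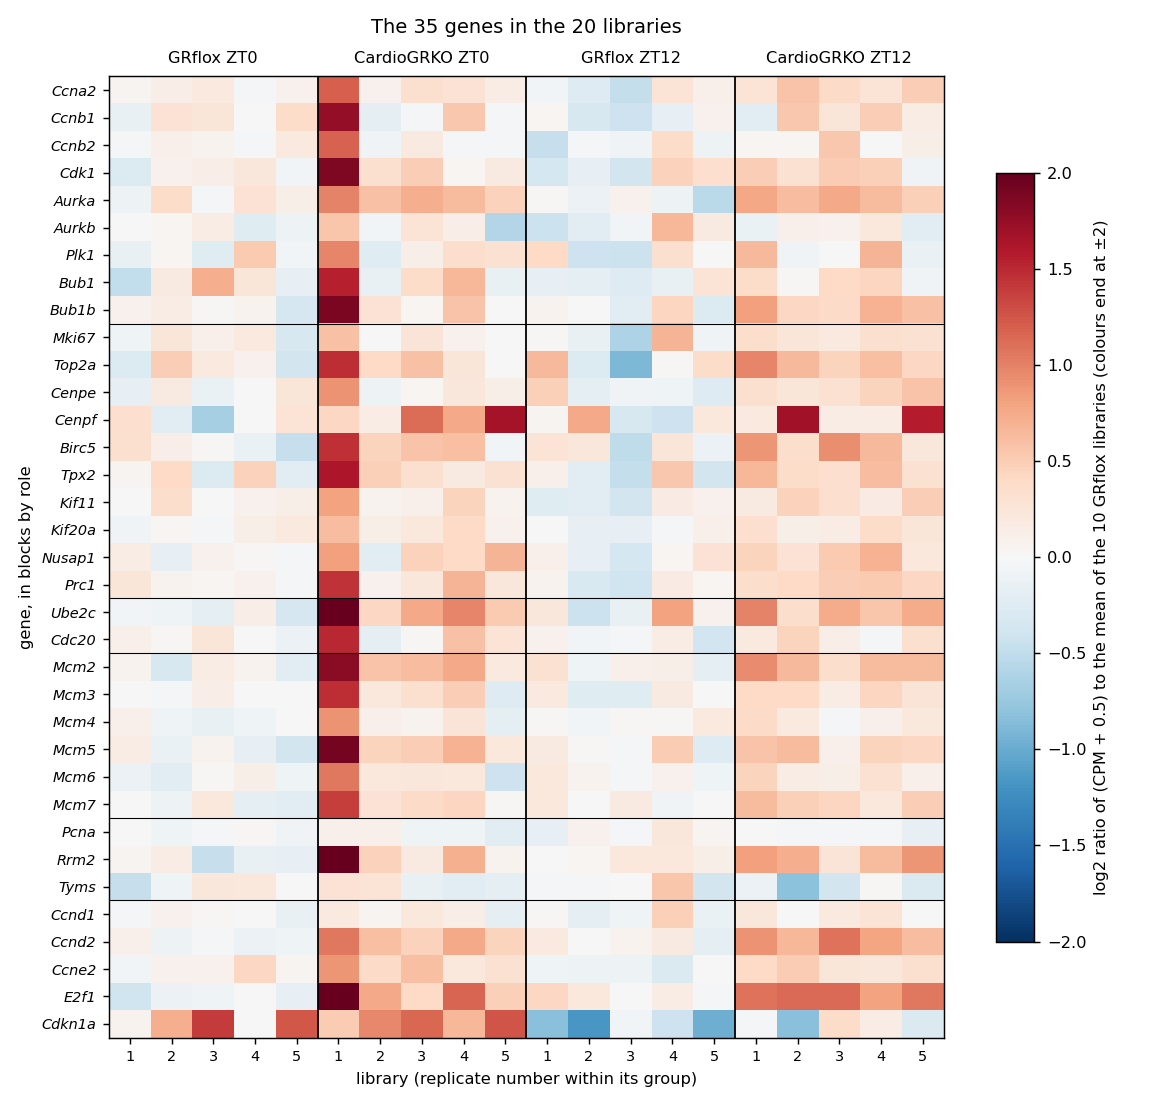
Log2 ratio of CPM + 0.5 to the mean of the 10 GRflox libraries, for the 35 genes (rows, in blocks by role) in the 20 libraries (columns, by group and replicate number); red is higher, blue lower, and colours end at ±2. The column of CardioGRKO ZT0 replicate 1 is red for most rows, Cenpf is high in 3 other CardioGRKO libraries, and the row of Cdkn1a follows the time of day.

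Split by role, the median of the 21 mitosis genes was 0.08 to 0.40 in the 4 deeper CardioGRKO libraries of ZT0 and 0.31 to 0.48 at ZT12, against -0.05 to 0.13 and -0.35 to 0.17 in GRflox. For the 9 replication genes it was -0.18 to 0.44 and 0.11 to 0.44 in CardioGRKO, against -0.09 to 0.07 and -0.01 to 0.19 in GRflox. The mitosis medians of the genotypes overlapped at ZT0 and not at ZT12, and the replication medians overlapped at both times.

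**Figure D4:**
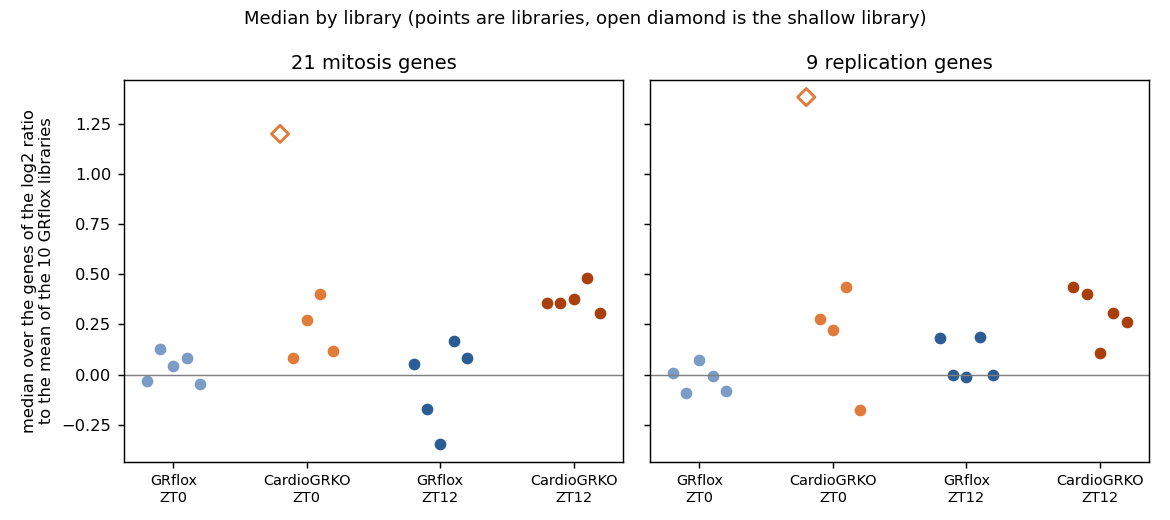
Median log2 ratio to the GRflox mean over 21 mitosis genes (left) and 9 replication genes (right) in each library, by group; the open diamond is the shallow library. It lies at 1.20 and 1.383, above all other libraries, and the remaining CardioGRKO libraries lie between -0.18 and 0.48.

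The second question was the time of day. Of the 35 genes 1 was called between ZT12 and ZT0 in GRflox, against 17.3% of all genes in either direction, and the same gene in CardioGRKO, against 9.17%. This was Cdkn1a, which encodes p21, an inhibitor of cyclin-dependent kinases. It was at 36.9, 58.7, 94.1, 35.7 and 84.1 CPM at ZT0 and at 19.6, 15.6, 33.8, 26.5 and 17.8 CPM at ZT12 in GRflox. In CardioGRKO it was at 50.5, 69.4, 78.9, 56.3 and 84.8 CPM at ZT0 and at 34.3, 19.6, 45.8, 39.1 and 28.8 CPM at ZT12. In both genotypes every ZT12 library lay below every ZT0 library, though GRflox libraries of ZT0 spread more than those of other groups. Cdkn1a fell by 1.45 ± 0.26 on the log2 scale in GRflox (adjusted p = 0.000297) and by 1.02 ± 0.25 in CardioGRKO (adjusted p = 0.0114), and these falls did not differ detectably (interaction 0.43 ± 0.36, adjusted p = 0.93). Between genotypes Cdkn1a was not called, with 0.13 ± 0.25 at ZT0 and 0.56 ± 0.26 at ZT12.

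The other 34 genes did not pass between the times in either genotype, and the median log2 fold change of the 35 was -0.04 in GRflox. In CardioGRKO its sign turned with 1 library: it was -0.05 with 12 genes above 0, and 0.12 with 29 above 0 (49.0% of all genes) without the shallow library. With both genotypes averaged, Cdkn1a alone was called (25.7% of all genes were). Without the shallow library, Ccnd2 and E2f1 were called higher at ZT12 as well, by 0.17 (adjusted p = 0.0459) and 0.34 (adjusted p = 0.0370), when 25.5% of all genes were called in either direction. The comparisons between the times and those between the genotypes use the same libraries, so their values are not independent.

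Levels per kilobase of exon allow the genes to be set beside each other. Over the 20 libraries the highest were Ccnd2 at 26.2 CPM per kilobase, Ccnd1 at 24.3, Cdkn1a at 13.1 and Pcna at 8.96. The 6 helicase genes ran from 1.68 (Mcm5) to 3.54 (Mcm4) CPM per kilobase. The 21 mitosis genes ran from 0.102 (Ccnb1) and 0.117 (Bub1) to 1.58 (Kif20a) and 2.36 (Cenpf), and all of them but Cenpf lay below Mcm5. In CPM not scaled by length, 4 genes had a mean under 1, 23 a mean of 1 to 10 and 8 a mean of 10 or more.

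Other genes of these pathways were examined as further lists. Of 64 tested other mitosis genes, 11 were called higher at ZT0 and 12 at ZT12, with 0 and 1 lower, and 24 higher with 1 lower over both times (17.2%, 18.8% and 37.5% higher, against 7.36%, 10.4% and 15.5% of all genes). The lower gene, named after its values were seen, was Spc24 of the kinetochore, at -0.49 ± 0.14 at ZT12 (adjusted p = 0.0105). Their median log2 fold change over both times was 0.46. Without the shallow library 5 were higher at ZT0 (7.81%, against 6.33% of all genes) and 18 at ZT12 (28.1%, against 10.6%). The ZT0 share was then near that of all genes. Cit, whose kinase acts in cytokinesis, rose from 2.42 ± 0.34 (SD, n = 5) to 3.95 ± 0.66 CPM at ZT0 (edgeR adjusted p = 0.00174) and from 2.10 ± 0.48 to 4.66 ± 0.51 CPM at ZT12 (edgeR adjusted p = 3.74e-06). Spc25, a part of the NDC80 complex of the kinetochore, had a log2 fold change of 1.84 ± 0.35 at ZT12 (adjusted p = 0.000488), and Gas2l3, which links actin and microtubules, 1.26 ± 0.22 (adjusted p = 0.000196).

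Of 46 tested other replication genes, no larger a share was called higher by edgeR than of all genes at either time (4.35% at both, against 7.36% and 10.4%). These were 2 at ZT0, Rfc4 of the clamp loader and Cdc6 of helicase loading, and 2 at ZT12, Asf1b, a histone chaperone, and Rfc3 of the clamp loader. At an unadjusted p under 0.05, 13 were higher and 1 lower at ZT0, and 6 and 2 at ZT12. DESeq2 called 5 higher at ZT0 and 2 at ZT12, with 0 and 1 lower. The shares of all genes at an unadjusted p under 0.05 and by DESeq2 are not given here. Whether these counts exceed them cannot be said. Gmnn, whose product geminin blocks helicase loading, was lower at ZT12, by -0.34 ± 0.11 (adjusted p = 0.0347). Over both times 8 of the 46 were higher (17.4%, against 15.5% of all genes) and 1 lower, with a median of 0.11, against 0.46 for the 6 helicase genes; that difference was not tested. At ZT0 without the shallow library 1 was higher (Rfc4, 2.17%, against 6.33% of all genes) and 1 lower (Gmnn).

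Of the 28 tested other genes of the G1/S and RB pathway, 5 were higher and 4 lower over both times. These shares, 17.9% and 14.3%, lay near the 15.5% and 15.9% of all genes. Tfdp2, a partner of E2F factors in DNA binding, had the smallest p: it was at 87.7 ± 6.08 CPM (SD, n = 5) in GRflox at ZT0 against 55.9 ± 5.17 CPM in CardioGRKO, and at 133 ± 10.2 against 60.9 ± 9.42 CPM at ZT12. Its log2 fold change was -0.66 ± 0.09 (edgeR adjusted p = 8.03e-06) and -1.14 ± 0.08 (adjusted p = 9.33e-10). Myc and Cdk6 were higher at ZT0, by 0.57 ± 0.16 and 0.45 ± 0.14, and E2f3 and E2f8 at ZT12, by 0.41 ± 0.07 and 0.70 ± 0.18. E2f4, a partner of the RB-like proteins, was lower at both times, with -0.21 ± 0.07 at ZT0 (adjusted p = 0.0381), where it was not called without the shallow library (-0.17, adjusted p = 0.108).

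Cdkn1a is a target of p53, and of 23 other tested p53 target genes 9 were higher at ZT0 and 9 at ZT12 (39.1% each, against 7.36% and 10.4% of all genes), with 0 and 2 lower. Phlda3, an inhibitor of Akt signalling, was at 8.69 ± 1.61 CPM (SD, n = 5) in GRflox at ZT0 against 22.4 ± 2.59 CPM in CardioGRKO, and at 9.10 ± 2.28 against 23.3 ± 4.59 CPM at ZT12 (edgeR adjusted p = 8.87e-07 and 4.16e-07). Eda2r, a receptor of the TNF family, changed by 1.08 ± 0.11 and 0.84 ± 0.11, and Sesn1 and Ccng1 were lower at ZT12, at -0.60 ± 0.06 (adjusted p = 2.94e-07) and -0.23 ± 0.06 (adjusted p = 0.006). The counts without the shallow library were 8 higher at ZT0 and 9 at ZT12 (34.8% and 39.1%, against 6.33% and 10.6% of all genes).

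Some of the genes share exon sequence with a gene on the opposite strand, and the strand setting of the counting is unknown (not given in the sources used here). Ube2c shares 592 bases with Tnnc2, which was at 0 to 0.333 CPM. Kif20a shares 1271 bases with Cdc23 (30.5 to 40.3 CPM), Ccna2 510 with Exosc9 (16.6 to 23.9 CPM) and Ccne2 609 with Ints8 (18.3 to 26.5 CPM). Of these neighbours Ints8 was itself called at ZT12, at 0.16 ± 0.05 (adjusted p = 0.0349), and over both times, at 0.14 ± 0.04 (adjusted p = 0.00752). Exosc9 was called over both times, at 0.13 ± 0.05 (adjusted p = 0.0345), as Ccna2 was, and Cdc23 in none of these comparisons. Prc1 shares 911 bases with Rccd1 and Mcm7 321 with Ap4m1 and 64 with Cops6, and none of these was called at either time or over both by edgeR. Nusap1 shares 172 bases with Oip5, which was at 0.0837 to 0.839 CPM and changed by 1.78 ± 0.41 at ZT12 (adjusted p = 0.00249). For genes with such neighbours, the reads of each cannot be told apart without strand.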

How the data were processed

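RNA of 20 left ventricles, 5 per group, was sequenced from poly(A)-selected TruSeq libraries, per the labels' protocols. The authors deposited whole-number counts per gene, not normalised. Per the submitters' processing notes, DESeq2 1.38.3, STAR 2.5.1 and Subread 1.5.1 (featureCounts) were among the tools, and the genome build was mm10; the annotation and strand setting are unknown here. Each deposited file has 24918 lines, which were summed by Entrez identifier to 24059 genes.

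The 35 members and all other gene lists were chosen with earlier results of these data known. Counts were scaled by TMM (factors 0.961 to 1.04) and filtered with filterByExpr (minimum count 10, minimum total 15), which left 14007 genes. All genotype and time contrasts came from 1 edgeR 4.0.16 quasi-likelihood fit over the 4 groups (limma 3.58.1, R 4.3.3), with Benjamini-Hochberg adjustment over all genes tested, a threshold of 0.05 and a biological coefficient of variation of 8.78%. Each standard error is the log2 fold change divided by the square root of F, and each 95% interval is a normal approximation from it. Library medians used log2 of CPM + 0.5. The fit was tested on simulated data. Replicates of each group differed by more than counting noise. Alternatives were RLE factors, DESeq2 1.42.0, no filter on low counts, a replicate block, only the 2 groups compared, thinning every library to 5854462 counts, and leaving out each library. Genes named were the 35 members, Nr3c1 and, in each other list and comparison, up to 4 called genes with the smallest p; Spc24, Ccng1 and the antisense neighbours were named after their values were seen. Promoters came from RefSeq (GRCm38.p6), exon lengths and overlaps from GENCODE vM21. Python 3.11.15, pandas 2.3.3 and matplotlib 3.10.9 were used.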

Additional observations from a re-analysis of the deposited data

Results flagged for a closer look

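In 23 of 140 sets of 5 libraries, 1 gene in 1 group each, a single library stood apart by Dixon's criterion, which chance meets in about 1 set in 20. The shallow library, CardioGRKO ZT0 replicate 1, was the high value in 14 of the 23. Among genes of cyclins, mitotic kinases and the checkpoint these were Ccna2 at 11.0 CPM, where the next library had 5.78, Ccnb1 at 2.14 (next 0.636), Ccnb2 at 2.30 (next 0.904), Cdk1 at 3.95 (next 1.22) and Bub1b at 7.24 (next 2.64). Of the spindle and chromosome genes, Top2a was at 9.88 CPM (next 5.11), Cenpe at 2.80 (next 1.58) and Tpx2 at 8.73 (next 3.67), and the ubiquitin-conjugating enzyme gene Ube2c was at 9.22 (next 2.73). Of the replication genes, Mcm2 was at 43.5 CPM (next 20.8), Mcm5 at 20.3 (next 8.37), Mcm7 at 21.6 (next 10.9) and Rrm2 at 13.0 (next 4.82). The transcription factor gene E2f1 was at 14.98 CPM (next 4.58).

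The other 9 values lay in other libraries. Ccnb2 was high in CardioGRKO ZT12 replicate 3, at 1.30 CPM (next 0.848), Bub1 in GRflox ZT12 replicate 5, at 0.522 CPM (next 0.260), and Cenpe in GRflox ZT12 replicate 1, at 1.964 CPM (next 1.18). Mcm3 was high in GRflox ZT0 replicate 3, at 7.40 CPM (next 6.78), and Mcm4 in GRflox ZT12 replicate 5, at 13.4 CPM (next 11.8). Ccnd1 was high in GRflox ZT12 replicate 4, at 152 CPM (next 111), and Ccne2 in GRflox ZT0 replicate 4, at 6.50 CPM (next 5.10). Pcna was low in CardioGRKO ZT12 replicate 5, at 19.3 CPM (next 21.3), and E2f1 in CardioGRKO ZT12 replicate 4, at 3.44 CPM (next 4.18).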

How the results depend on the processing

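Of the 44 calls of single members, 25 held under every alternative run; of 1119 alternative values 1056 kept direction and call, 63 lost the call and 0 reversed. With every library thinned to the depth of the shallowest, 7 members were called between genotypes at ZT0, 5 at ZT12 and 14 over both times, and 2 between the times both in GRflox and with the genotypes averaged; fewer reads were counted by construction. Leaving out 1 library at a time gave 7 to 12 members at ZT0, 4 to 18 at ZT12 and 19 to 23 over both times between genotypes. Between the times it gave 1 to 3 with the genotypes averaged (3 without CardioGRKO ZT0 replicate 1), 1 within each genotype and 0 for the interaction. The cause of these changes was not tested. DESeq2 called 12, 11 and 22 members at ZT0, ZT12 and over both times. Shares of all genes called are not given for the thinned, DESeq2 and replicate-block fits, nor for leaving out any library but the shallow one. The counts from those fits therefore do not show how far the list stood apart from all genes.

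With the replicate number as a block, 11 members were called at ZT0, 15 at ZT12 and 22 over both times; Cdk1 lost its call over both times, and Cdkn1a gained one at ZT12 and over both times. Whether the numbers pair the samples is not stated in the labels. Deviations of same-numbered libraries correlated at -0.272 to 0.234 over 30 pairs, 8 of them over 0.1, which does not settle it.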
